A study of Mus musculus with 2 samples.

Results

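The subunits of oxidative phosphorylation were described gene by gene, by respiratory complex and by the genome that encodes them, in single cells of the mouse small intestine. Members were all rows of the 2 count tables whose symbols begin with Ndufa, Ndufb, Ndufc, Ndufs, Ndufv, Sdha to Sdhd, Uqcr, Cox4i, Cox5, Cox6, Cox7, Cox8 or Atp5, or with mt-Nd, mt-Co, mt-Cyt or mt-Atp, without pseudogene copies and assembly factors. This rule found 98 of 31053 gene symbols, 85 nuclear and 13 mitochondrially encoded. The nuclear members were 36 of complex I, 4 of complex II, 8 of complex III, 20 of complex IV and 17 of complex V, and the mitochondrial genome added 7, 0, 1, 3 and 2. Ndufa4 and Ndufa4l2 were counted with complex IV, where the Ndufa4 protein is now placed. In all, 96 members matched 1 gene of the GENCODE vM21 annotation, and Cox7b2, Cox8b and Cox8c had no UMI (unique molecular identifier, 1 counted RNA molecule) in either library.

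The 2 libraries came from 1 mouse each, both C57BL/6j, 60 days old, and killed 24 hours after a single dose of tamoxifen at 6 mg per 40 g. The control animal, called Tg, was Mdm2+/- Cag-CreERTg, and the other, called FMTg, was Mdm2FM/- Cag-CreERTg, so both carried 1 null allele of Mdm2 and the tamoxifen-inducible Cre driven by the Cag promoter. Mdm2 encodes the ubiquitin ligase that restrains p53, and the study compared intestine after acute loss of Mdm2 with intestine that kept it. The labels name no cell type in which Cre acted and no recombination rate. With 1 library per genotype there is no test: every interval below is a 95% exact interval that covers counting error only, and genotype, animal and library preparation cannot be told apart.

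Oxidative phosphorylation passes electrons from NADH (complex I) and succinate (complex II) through complexes III and IV to oxygen, and complex V uses the resulting proton gradient to make ATP. Complex II is built from nuclear genes alone, whereas the other complexes join nuclear subunits to a hydrophobic core read from mitochondrial DNA, which is transcribed as long polycistronic precursors. Absorptive enterocytes of the small intestine depend on mitochondrial respiration for nutrient transport, and they mature as they migrate from the crypt to the villus tip.

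The tables held 6270 barcodes with 54013005 UMIs in Tg and 6382 with 49805718 in FMTg, and 14 barcode sequences occurred in both. After a minimum of 500 UMIs and 300 genes, a limit of 25% on the mitochondrial share and doublet removal, 2913 and 2675 cells remained, and the mitochondrial limit alone removed 2946 and 3353 barcodes. Median mitochondrial shares of the kept cells were 11.7% in Tg and 14.8% in FMTg. Over these cells Mdm2 counted 2721 UMIs in Tg against 3453 in FMTg, at a log2 ratio (FMTg over Tg) of 0.61 (0.54 to 0.68), and the p53 target Cdkn1a 10583 and 12878 (0.55). The sources used here do not give the deleted part of Mdm2, so a 3' tag count does not check the genotype. Cells were clustered without the subunit genes, and clusters were named from marker genes. The named classes with at least 10 cells in each library were enterocyte-like (574 Tg and 506 FMTg cells), T-like or NK-like (1112 and 1023), B-like (479 and 537), macrophage-like or monocyte-like (182 and 42), goblet-like (121 and 44), tuft-like (51 and 62), plasma-cell-like (21 and 31), crypt-progenitor-like (10 and 38) and enteroendocrine-like (14 and 16).

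Nuclear subunits took a different share of the transcriptome in different cell classes. As a percentage of UMIs that were not mitochondrial, the summed nuclear members made up 5.42% in Tg and 4.88% in FMTg tuft-like cells. The median tuft-like cell had 4.87% and 4.64%, and the median crypt-progenitor-like cell 5.57% and 5.42%. As sums, T-like or NK-like cells had 2.32% and 2.40%, macrophage-like or monocyte-like cells 2.28% and 2.35%, and B-like cells 1.78% and 1.77%. The secretory goblet-like cells were low, at 1.23% and 0.952%. The ordering of tuft-like above T-like, B-like and goblet-like cells was therefore the same in both libraries, while enterocyte-like cells, the class with the most UMIs, had 5.51% in Tg and 4.24% in FMTg. The ratio of mitochondrially encoded to nuclear subunit UMIs also differed between classes, from 2.13 in Tg and 2.21 in FMTg crypt-progenitor-like cells to 9.37 in Tg B-like cells and 12.0 in FMTg goblet-like cells, with 11.1 in FMTg B-like and 8.46 in Tg goblet-like cells. The 25% limit bounds this ratio: in enterocyte-like cells it was 3.82 and 5.35 with the limit and 12.9 and 14.0 without it.

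Nuclear subunits were lower in FMTg enterocyte-like cells in all 5 complexes. Their sum was 635570 UMIs in Tg against 364366 in FMTg, at a log2 ratio of -0.40 (-0.40 to -0.39) after scaling to the total UMIs of the class. Of the 78 members that reached 20 UMIs in all, 73 had a ratio below 0, 19 (24.4%) were at least 1.5-fold lower and 1 at least 1.5-fold higher. Among all 10522 genes that reached it, 11.2% were at least 1.5-fold lower and 15.7% higher. The median member ratio was -0.45 against 0.059 over all genes. With the factors of TMM (trimmed mean of M values) or DESeq2, which move that all-gene median to -0.040 and -0.035, the median member ratio was -0.55 in both. The medians of complexes III and IV, at -0.25 and -0.38, turned to 0.065 and 0.047 as means of within-cluster ratios and to 0.044 and 0.0036 at a 10% mitochondrial limit. Median mitochondrial shares were 16.7% in Tg and 19.1% in FMTg, and median depths 24170 and 18008 UMIs per cell. Their part in the result was not tested.

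**Figure D1:**
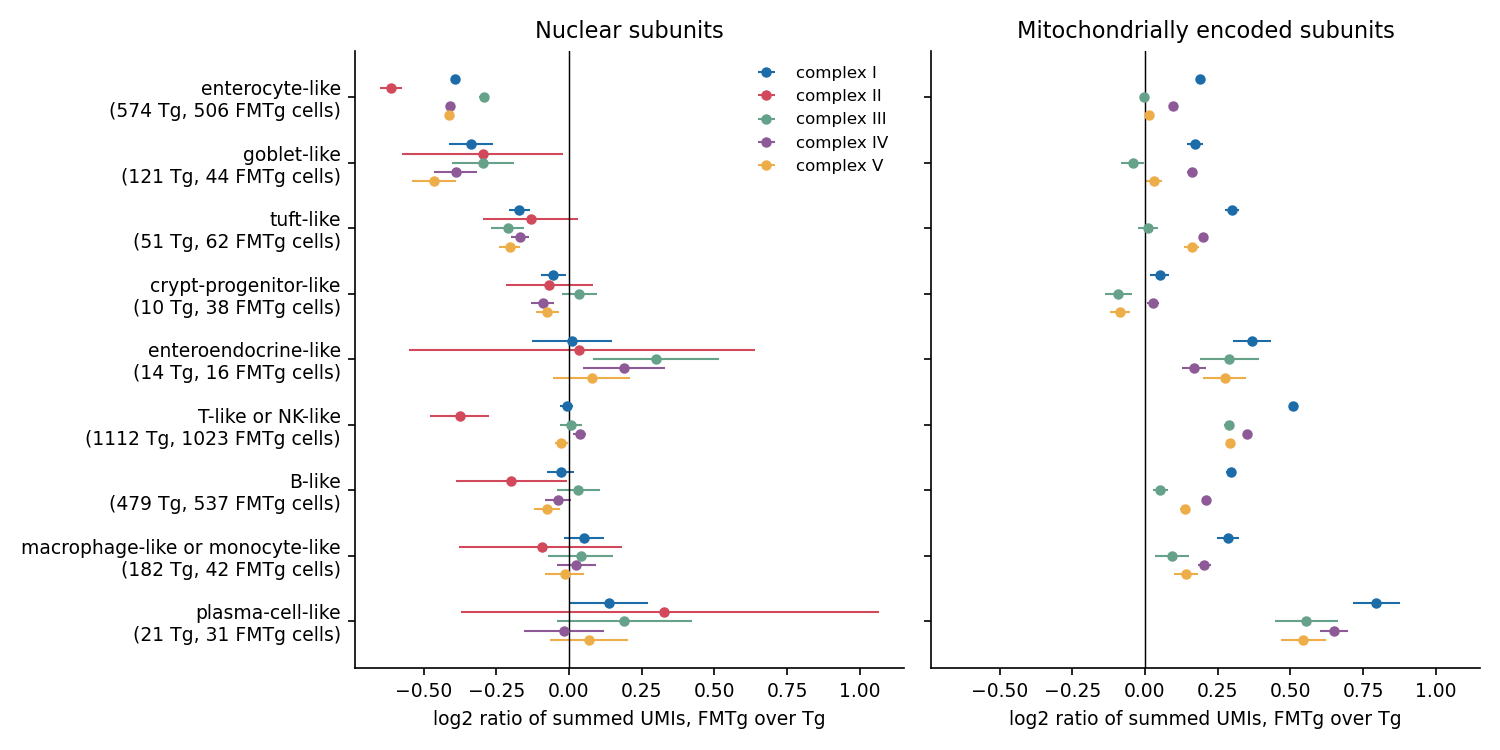
Log2 ratio (FMTg over Tg) of the summed UMIs of each complex, scaled to the class total, in 9 cell classes, for nuclear members (left) and mitochondrially encoded members (right). Bars are 95% exact intervals for counting error. Nuclear members lie left of 0 in enterocyte-like, goblet-like and tuft-like cells, complex II also in T-like or NK-like and B-like cells, and mitochondrially encoded members lie mostly right of 0.

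Complex II, succinate dehydrogenase, stood lowest. Its catalytic flavoprotein gene Sdha had 3911 UMIs in Tg and 2053 in FMTg enterocyte-like cells (280 and 195 CPM, the UMIs scaled to a common class total), a log2 ratio of -0.52 (-0.60 to -0.45). The iron-sulfur subunit gene Sdhb had 6675 and 3110 UMIs, at -0.70 (-0.76 to -0.63). Of the membrane anchor genes, Sdhd had 4509 and 1936 UMIs (323 and 184 CPM), at -0.81 (-0.89 to -0.74), and Sdhc 2721 and 1695, at -0.28 (-0.36 to -0.19). All 4 were thus lower in FMTg over the whole class, Sdhb and Sdhd by at least 1.5-fold. As means of within-cluster ratios Sdha was -0.081, Sdhb -0.32, Sdhc -0.039 and Sdhd -0.25, with 0 of 4 at least 1.5-fold lower. The median of the 4, -0.61 over the class, was -0.17 on that measure. Over the complex the sum was at -0.61 (-0.65 to -0.58), and its interval did not overlap those of the nuclear sums of complexes I, III, IV and V. Nuclear members of all complexes with annotated transcripts of 1000 to 2000 bases had a median of -0.52. Those of 2000 to 4000 bases were at -0.62. The complex II genes fall in these ranges, and the part of length was not tested.

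In complex I, the NADH dehydrogenase, the nuclear sum was at -0.39 (-0.40 to -0.38) and 12 of 36 members were at least 1.5-fold lower. Core subunits were among those with lower values. Ndufs8 had 1569 and 718 UMIs (-0.72, -0.85 to -0.59), Ndufs7 4145 and 1975 (-0.66), Ndufv1, which binds NADH, 3133 and 1527 (-0.63), and Ndufv2 3782 and 1852 (-0.62). Ndufs3 and Ndufs1 were at -0.60 and -0.47. As means of within-cluster ratios Ndufs8 was -0.055, Ndufs7 -0.17, Ndufv1 -0.32, Ndufv2 -0.12, Ndufs3 -0.089 and Ndufs1 -0.055. The median of the nuclear complex I members, -0.48, was -0.029 on that measure. Accessory subunits, which surround the core, held both ends of the range. Ndufa8 had 3323 and 1498 UMIs (-0.74), Ndufb5 5479 and 2476 (-0.74) and Ndufb10 5070 and 2315 (-0.72). As means of within-cluster ratios they were -0.20, -0.038 and -0.14. Ndufa3 had 2808 UMIs (201 CPM) in Tg and 2413 (229 CPM) in FMTg, at 0.19 (0.11 to 0.27), and Ndufa1 and Ndufa6 were at 0.13 and 0.12. Ndufa3 was above 0 in each of 17 alternative settings, from 0.059 to 0.43, whereas Ndufa1 turned to -0.22 and Ndufa6 to -0.28 at a 50% mitochondrial limit.

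Complex III, the bc1 complex, had the smallest difference, with a nuclear sum at -0.29 (-0.31 to -0.28) and 0 of 8 members past 1.5-fold. Over the whole class its core proteins differed from each other: Uqcrc2 had 4834 and 2543 UMIs (-0.52, -0.59 to -0.45) and Uqcrc1 7516 and 4746 (-0.26, -0.31 to -0.20). As means of within-cluster ratios they were close, at -0.20 and -0.17. Uqcrfs1, the Rieske iron-sulfur protein gene, was at -0.51, and the small subunits Uqcrq, Uqcr10 and Uqcrh were at -0.18, -0.19 and -0.23, and turned to 0.28, 0.26 and 0.24 as means of within-cluster ratios. Cyc1, the cytochrome c1 gene of the same complex, which the symbol rule does not take, was at -0.57, and Cycs, the mobile electron carrier cytochrome c, at -0.39.

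In complex IV, cytochrome c oxidase, the nuclear sum was at -0.41 (-0.42 to -0.40). Cox5a, a structural subunit that contacts the catalytic core, had 18649 UMIs (1336 CPM) in Tg and 8160 (775 CPM) in FMTg, at -0.79 (-0.82 to -0.75), and was the 1 of 14 members at least 1.5-fold lower. Cox7a2 and Cox7b were at -0.53 and -0.52, and the 3 members with the most UMIs, Cox4i1, Cox8a and Cox6c, at -0.44, -0.39 and -0.37. Cox7c was the nearest to 0, at -0.16, and turned to 0.36 as the mean of the within-cluster ratios. On that measure Cox8a and Cox6c also turned, to 0.039 and 0.10. Cox4i1, Cox7b, Cox7a2 and Cox5a were at -0.049, -0.042, -0.12 and -0.25. Of the 13 nuclear members of the complex with at least 20 UMIs in each cluster, 4 were below 0 within clusters.

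In complex V, the ATP synthase, the nuclear sum was at -0.41 (-0.42 to -0.40) and 4 of 16 members were at least 1.5-fold lower. The F1 head genes were unequal: Atp5a1 (alpha) had 16074 and 7753 UMIs (-0.65), Atp5c1 (gamma) 11668 and 5608 (-0.65) and Atp5b (beta) 20484 and 12614 (-0.29). As means of within-cluster ratios they were -0.20, -0.16 and -0.057. The 3 genes for the identical subunit c of the rotor ring also differed, with Atp5g1 at 10357 and 4451 UMIs (-0.81, -0.86 to -0.76), Atp5g2 at -0.54 and Atp5g3 at -0.40. As means of within-cluster ratios these were -0.041 for Atp5g1 and, above 0, 0.30 for Atp5g2 and 0.057 for Atp5g3, and Atp5g2 also turned to 0.25 at a 10% mitochondrial limit. Atp5s, the remaining member past 1.5-fold, rested on 63 and 30 UMIs. Atp5k, subunit e of the membrane part, had 7448 and 5985 UMIs, at 0.091 (0.042 to 0.14), a sign that turned at a 50% mitochondrial limit (-0.11) and with TMM (-0.0084) and DESeq2 factors (-0.0029). Atpif1, the gene of the protein that inhibits ATP hydrolysis by the enzyme, was no member and stood at -0.48.

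**Figure D2:**
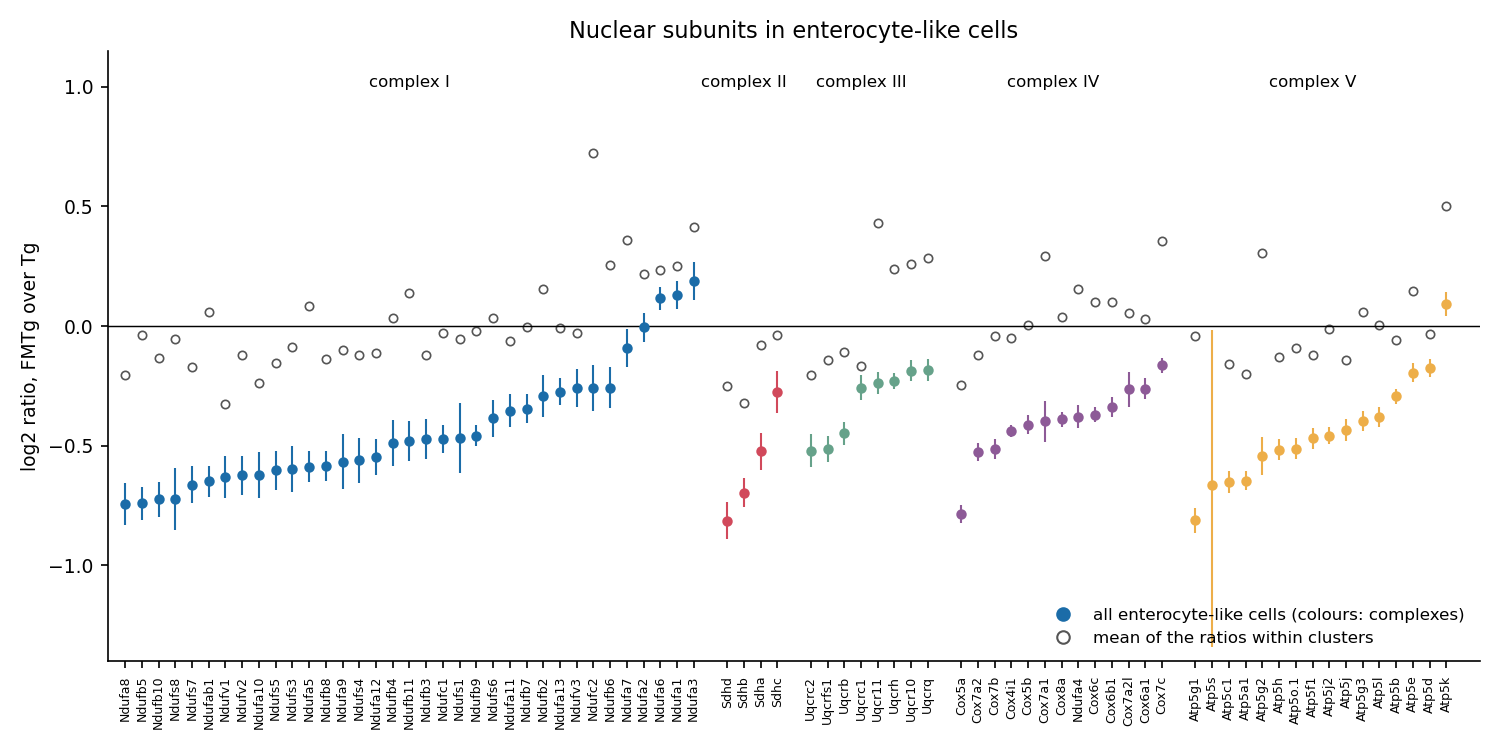
Log2 ratio (FMTg over Tg) of nuclear members in enterocyte-like cells, by complex; bars are 95% exact intervals. Open circles give the mean of the ratios within the 5 enterocyte clusters for members with at least 20 UMIs in each; most filled points lie below 0 and the open circles lie around 0. Cox6b2 (2.67) is off the scale and left out.

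The ratios of the whole class and those within its clusters differed. Enterocyte-like cells formed 5 clusters, numbered 3, 4, 6, 8 and 12, which the animals filled unequally. Cluster 4, led by villus tip genes such as Clca4a and Apoa4, held 22 of the Tg cells (3.83%) and 236 of the FMTg cells (46.6%). Cluster 3 held 157 and 105 cells, cluster 6, which is shallow at 1388 and 1606 UMIs per cell, 170 and 61, cluster 8 138 and 74, and cluster 12 87 and 30. The summed tip genes stood at 49977 CPM in Tg and 44519 in FMTg in cluster 4 and at 4042 and 3566 in cluster 8, and genes of the villus bottom such as Reg3b at 15529 and 18818 in cluster 4 and 142710 and 111000 in cluster 8.

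Nuclear subunits followed these clusters in both animals. Cluster 4 had 2.75% of non-mitochondrial UMIs in Tg and 2.77% in FMTg, cluster 3 4.59% and 4.41%, cluster 12 5.99% and 5.56%, cluster 8 6.12% and 6.48%, and cluster 6 6.48% and 7.74%. Cluster 4 was thus lowest in either library. The FMTg over Tg log2 ratio of the nuclear sum was 0.045 (0.010 to 0.079) in cluster 4, -0.046 in cluster 3, -0.16 in cluster 12, 0.073 in cluster 8 and 0.20 in cluster 6. The median member ratio was -0.11 without cluster 4 and -0.032 as the mean of the within-cluster ratios, and 1 and 0 of 78 members were then at least 1.5-fold lower.

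**Figure D3:**
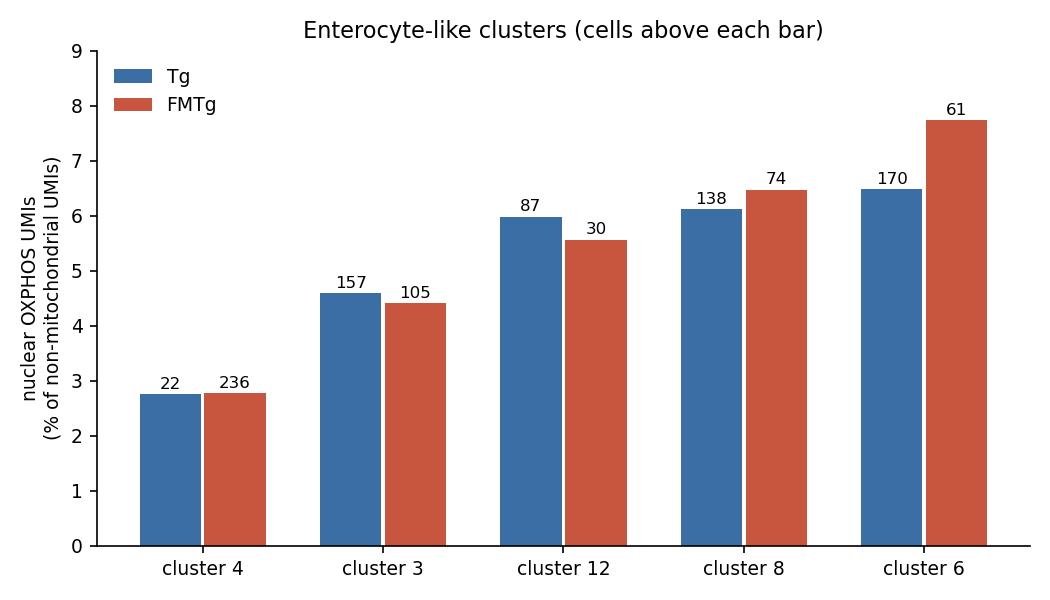
Summed nuclear subunit UMIs as a percentage of non-mitochondrial UMIs in the 5 enterocyte-like clusters, Tg and FMTg side by side, with the number of cells above each bar. The 2 bars of cluster 4, 2.75% and 2.77%, are the lowest of each library, and cluster 4 holds 22 Tg and 236 FMTg cells.

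Members that kept 1 sign in every cluster were about as frequent as among all genes. Of 76 nuclear members with at least 20 UMIs in each of the 5 clusters, 9 (11.8%) were below 0 in every cluster and 9 (11.8%) above 0 in every cluster, against 9.54% and 10.1% of the 2579 genes so measured. The 9 lower ones were Sdhb, Ndufv1, Ndufa10, Ndufa12, Cox5a, Uqcrc2, Uqcrfs1, Atp5a1 and Atp5f1. Sdhb was at -0.38 in cluster 3, -0.38 in cluster 4, -0.19 in cluster 6, -0.30 in cluster 8 and -0.36 in cluster 12, with an interval below 0 in 4 of the 5. Complex II as a whole was at -0.29 (-0.36 to -0.22) in cluster 3, -0.29 in cluster 8 and -0.33 in cluster 12, where the summed nuclear members were at -0.046, 0.073 and -0.16. Tip and bottom genes also differed within clusters, the tip genes at 18505 CPM in Tg and 3788 in FMTg in cluster 6, whose nuclear ratio of 0.20 was the highest, at 14379 CPM in Tg and 18409 in FMTg in cluster 3 and at 4148 and 13145 in cluster 12, and the bottom genes at 155040 and 70287 in cluster 12. Their part in the ratios within clusters was not tested. In cluster 4 complex II was at -0.14 (-0.34 to 0.069) and in cluster 6 at -0.0024 (-0.25 to 0.24). On the other side, Ndufa3 was above 0 in every cluster, from 0.33 to 0.52, and Atp5k from 0.095 to 0.91, with Uqcr11, Cox7c and Ndufa7 also above 0 in each. Ndufc2 had the highest mean within clusters, 0.72, of which cluster 4 gave 1.49 from 6 and 235 UMIs.

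Promoter sequences are shown for 4 members that mark these patterns: Sdhd and Cox5a as members with low ratios, Atp5k as one above 0 within clusters, and Cox6b2, described below, as the highest. Each is the RefSeq window (GRCm38.p6) from 250 bases before to 50 after the annotated start, read 5′ to 3′ on the gene's strand: Sdhd at chr9:50603800-50604099 (minus), Cox5a at chr9:57520982-57521281 (plus), Atp5k at chr5:108434350-108434649 (minus) and Cox6b2 at chr7:4753045-4753344 (minus). Capitals mark matches on either strand to the NRF1 motif GCGCATGCG, the ETS motif CCGGAAGT bound by GABPA, the YY1 motif AAGATGGCG or the estrogen-related receptor motif TCAAGGTCA, whose factors are known regulators of respiratory genes.
Sdhd: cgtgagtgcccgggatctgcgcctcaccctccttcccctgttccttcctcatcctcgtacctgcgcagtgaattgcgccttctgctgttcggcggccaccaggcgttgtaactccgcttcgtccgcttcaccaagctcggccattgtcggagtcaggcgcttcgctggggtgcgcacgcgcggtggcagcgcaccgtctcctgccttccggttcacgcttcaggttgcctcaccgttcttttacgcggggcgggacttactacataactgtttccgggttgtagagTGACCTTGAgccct
Cox5a: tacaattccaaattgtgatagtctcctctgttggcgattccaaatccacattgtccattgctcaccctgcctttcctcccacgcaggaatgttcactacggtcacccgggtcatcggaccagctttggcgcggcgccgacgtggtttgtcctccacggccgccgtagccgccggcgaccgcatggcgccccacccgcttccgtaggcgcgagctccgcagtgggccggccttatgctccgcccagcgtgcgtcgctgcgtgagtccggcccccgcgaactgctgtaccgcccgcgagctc
Atp5k: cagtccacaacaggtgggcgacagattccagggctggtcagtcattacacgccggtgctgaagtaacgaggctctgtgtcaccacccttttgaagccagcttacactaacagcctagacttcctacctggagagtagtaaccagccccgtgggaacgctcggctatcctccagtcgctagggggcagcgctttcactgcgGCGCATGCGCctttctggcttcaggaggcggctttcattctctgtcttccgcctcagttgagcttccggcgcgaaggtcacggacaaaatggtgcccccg
Cox6b2: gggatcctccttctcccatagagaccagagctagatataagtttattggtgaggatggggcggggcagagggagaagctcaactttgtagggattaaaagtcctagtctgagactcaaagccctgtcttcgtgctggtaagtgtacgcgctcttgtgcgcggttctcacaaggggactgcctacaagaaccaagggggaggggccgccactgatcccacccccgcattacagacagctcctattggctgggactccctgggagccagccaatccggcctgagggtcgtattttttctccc
The Sdhd window held TCAAGGTCA on the opposite strand, starting at base 287 of the window and so after the start site, and the Atp5k window held GCGCATGCG on both strands, overlapping, at bases 201 and 202. Cox5a and Cox6b2 held none of the 4 strings in this window. Among the 69 of 85 nuclear members with an entry in the promoter table, 8 (11.6%) held the NRF1 string, against 1.95% of all 27025 genes in it. The YY1 string was held by 7 (10.1%, against 1.64%), the ETS string by 5 (7.25%, against 4.31%) and the estrogen-related receptor string by 2 (2.90%, against 0.466%). The shorter strings TGCGCA, which overlaps the NRF1 string in part, and TATAAA were held by 18 (26.1%, against 8.79%) and 7 (10.1%, against 15.7%) and are not marked. A match of letters is a description and not a bound site.

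In T-like or NK-like and B-like cells the nuclear sums of complexes I, III, IV and V differed little between the animals, and complex II was lower in FMTg. In T-like or NK-like cells the nuclear sum was 117022 UMIs in Tg against 101382 in FMTg, at -0.0038 (-0.016 to 0.0083). Of 78 measured members 1 was at least 1.5-fold higher and 1 lower, against 4.95% and 8.19% of all genes. Complex II had 1972 and 1320 UMIs, at -0.38 (-0.48 to -0.27), with all 4 members below 0: Sdhd had 362 and 194 UMIs (64.4 and 39.7 CPM), at -0.70 (-0.96 to -0.44), Sdhc 405 and 255 (-0.46), Sdhb 584 and 406 (-0.32) and Sdha 621 and 465 (-0.21). Complexes I, III, IV and V were between -0.026 and 0.037 in sum. The complex II genes have long annotated transcripts, at 1142 (Sdhb), 1231 (Sdhd), 1993 (Sdhc) and 2900 bases (Sdha). In T-like or NK-like cells the 19 nuclear members from 1000 to 2000 bases, of all complexes, had a median of -0.20 with 0 above 0. The 7 from 2000 to 4000 bases were at -0.099. The part of length in the complex II ratio was not tested. The complex II ratio was -0.34 (-0.47 to -0.22) in the largest T-like cluster, numbered 0, with 865 Tg and 622 FMTg cells, and -0.45 (-0.68 to -0.23) in the next, numbered 2, with 195 and 305. Enterocyte genes of the villus bottom, which lymphocytes do not use, stood at 2689 CPM in Tg and 965 in FMTg in cluster 0, beside 142710 and 111000 in enterocyte cluster 8, and the part of RNA from other cells in the complex II ratio was not tested.

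In B-like cells the nuclear sum was at -0.042 (-0.066 to -0.018). Complex II had 460 and 446 UMIs, at -0.20 (-0.39 to -0.0072), all 4 members below 0 and each interval including 0. The 19 nuclear members from 1000 to 2000 bases, of all complexes, had a median of -0.23 in B-like cells. Of 77 members 0 were at least 1.5-fold higher and 2 lower, against 6.00% and 10.7% of all genes. In B-like cells Mdm2 had 83 and 79 UMIs (-0.22, -0.69 to 0.24) and Cdkn1a 81 and 88 (-0.034). Macrophage-like or monocyte-like cells had a nuclear sum at 0.020 (-0.016 to 0.056) and complex II at -0.094 (-0.38 to 0.18), from 42 FMTg cells. Plasma-cell-like cells, 21 and 31, had a nuclear sum at 0.081 (0.0083 to 0.15), with 13 of 69 members at least 1.5-fold higher and 5 lower, against 17.8% and 15.3% of all genes, and 10 of 13 mitochondrially encoded members were at least 1.5-fold higher.

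Of the epithelial classes outside the enterocytes, goblet-like cells had a nuclear sum of 23776 UMIs in Tg and 6643 in FMTg, at -0.38 (-0.42 to -0.34). In them 20 of 77 members (26.0%) were at least 1.5-fold lower and 2 (2.60%) higher, against 19.6% and 14.4% of all genes. Tuft-like cells were at -0.18 (-0.20 to -0.16), with 2 of 76 members (2.63%) at least 1.5-fold lower and 0 higher, against 9.80% and 10.2% of all genes. In the tuft-like class 61 of 76 members were below 0, and the median over all genes was -0.028. The share of all genes below 0 was not computed. Of other nuclear genes with at least 100 UMIs, 67 of 182 from 500 to 750 bases were above 0 (median -0.13). From 1000 to 2000 bases 235 of 779 were above 0 (median -0.15), and at 4000 bases and over 308 of 511. Crypt-progenitor-like cells, 10 in Tg, had a median member ratio of -0.080, with 0 of 77 at least 1.5-fold lower and 3 higher, against 11.8% and 15.6%. Enteroendocrine-like cells, 14 and 16, had a nuclear sum at 0.11 (0.042 to 0.19), with 10 of 76 members at least 1.5-fold higher and 8 lower, against 30.2% and 14.4%. Over all kept cells 64 of 79 members were below 0, with a median of -0.22, 0 at least 1.5-fold lower and 1 higher, against 9.75% and 12.1% of all genes. That median turned to 0.28 at a 10% mitochondrial limit.

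Mitochondrially encoded subunits were higher in FMTg in T-like or NK-like and B-like cells, where nuclear ones differed little. In T-like or NK-like cells their sum was 580214 UMIs in Tg against 648719 in FMTg, at 0.36 (0.36 to 0.37), with all 13 above 0. In B-like cells the sum was at 0.20 (0.19 to 0.21), again with 13 of 13 above 0. In enterocyte-like cells it was at 0.090 (0.087 to 0.093), with 11 of 13 above 0 and a median of 0.14, but the median was -0.099 without the mitochondrial limit, and 10 of 13 genes were then below 0. The limit cuts on these same genes, so levels between libraries depend on it by construction. Median mitochondrial shares were higher in FMTg within clusters 0 and 2 of the T-like cells, at medians of 8.93% and 12.4% and of 9.37% and 13.7%.

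The composition of the mitochondrially encoded pool, which does not depend on that total, also differed. Mt-Nd3, a core subunit gene of complex I, had 50135 UMIs in Tg and 58840 in FMTg enterocyte-like cells and made up 2.07% and 3.02% of the UMIs of the 13 genes. Mt-Atp8, a small subunit gene of complex V, had 6745 and 8991 UMIs, or 0.278% and 0.461% of the pool. The abundant genes mt-Co3 (21.4% and 20.1%), mt-Atp6 (19.4% and 18.2%) and mt-Cytb (9.70% and 9.10%) made up less of the pool in FMTg. The share of mt-Nd3 was higher in FMTg in 9 of 9 classes, by 0.40 to 0.70 in log2 and with an interval above 0 in each, and that of mt-Atp8 in 9 of 9, by 0.36 to 1.12, with an interval above 0 in 8. The shares of mt-Nd1, mt-Nd4l and mt-Co2 were also higher in each of the 9, with lower ends of their ranges at 0.034, 0.063 and 0.0077, and mt-Co3 was lower in each, by between -0.16 and -0.032. B-like cells, where Mdm2 and Cdkn1a gave intervals that include 0, had mt-Nd3 at 0.63 and mt-Atp8 at 0.73. On mitochondrial DNA mt-Atp8 overlaps mt-Atp6, and mt-Nd4l overlaps mt-Nd4, each pair on 1 messenger RNA, so reads of a pair cannot be split with certainty.

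**Figure D4:**
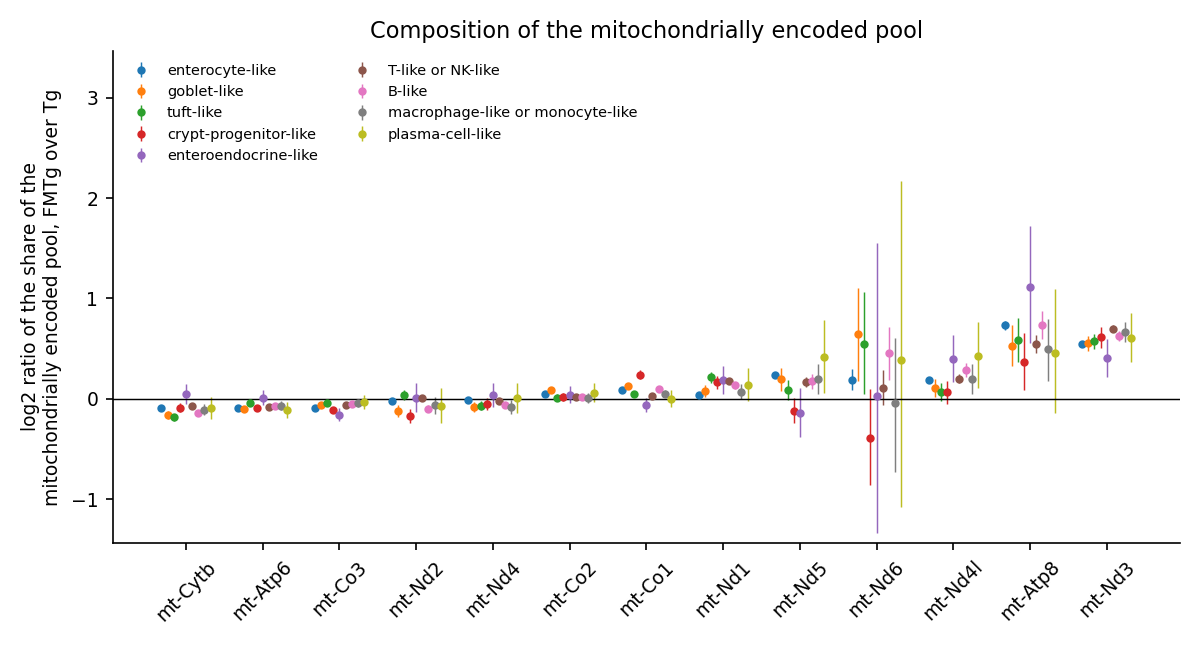
Log2 ratio (FMTg over Tg) of each mitochondrially encoded gene's share in the summed UMIs of the 13, in 9 cell classes; bars are 95% exact intervals. The points of mt-Nd3 lie between 0.40 and 0.70 and those of mt-Atp8 between 0.36 and 1.12, and mt-Co3 lies below 0 in each class.

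Ratios of nuclear members were lower for longer transcripts in each of the 6 classes looked at. With the median length of a gene's basic protein-coding transcripts in GENCODE vM21, the 10 nuclear members under 500 bases with at least 100 UMIs were all above 0 in T-like or NK-like cells, with a median log2 ratio of 0.17. The 28 members from 500 to 750 bases had a median of 0.014, and the 19 from 1000 to 2000 bases were all below 0, with a median of -0.20. The 7 from 2000 to 4000 bases were nearer to 0, at -0.099 with 2 above 0. In B-like cells 9 of 10 members under 500 bases were above 0 (median 0.14) and 1 of 19 from 1000 to 2000 bases (median -0.23), but 6 of 10 from 750 to 1000 bases were above 0 (median 0.012). In enterocyte-like cells, where most members were below 0, the medians were -0.19 for 12 members under 500 bases and -0.52 for 19 from 1000 to 2000 bases. Across the nuclear members Spearman's rho between length and ratio was -0.60 over 74 genes in T-like or NK-like cells, -0.56 over 73 in B-like cells and -0.58 over 76 in enterocyte-like cells. It was -0.50 in macrophage-like or monocyte-like, -0.41 in goblet-like and -0.34 in tuft-like cells. In tuft-like cells the 10 members under 500 bases had a median of 0.011, and the medians of the longer bins had no order, between -0.28 and -0.23. These are descriptions across genes of the same 2 libraries, and genes are not replicates.

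Some members under 500 bases were above 0 in most classes, and others were not. Ndufa1 (419 bases) and Ndufa6 (382 bases) were above 0 in 8 of 9 classes, with an interval above 0 in 5 and 1. Ndufa4 (460 bases) was above 0 in 2 of 9 and Cox6b1 (486 bases) in 4 of 9, each with an interval below 0 in 3. The share of all genes with 1 sign in every class was not computed. Ndufa3, at 433 bases, was above 0 in 9 of 9 classes, from 0.19 to 1.43, with an interval above 0 in 8. Atp5k, at 322 bases, was above 0 in 8 of 9, with an interval above 0 in those 8 and -0.0087 in goblet-like cells. In T-like or NK-like cells Atp5k had 1321 UMIs in Tg and 1700 in FMTg, at 0.57 (0.46 to 0.67), and Ndufa3 1037 and 1207, at 0.42 (0.30 to 0.54). In enterocyte-like cells the sign of Atp5k depended on the mitochondrial limit and the scaling, as given above. On the other side, Ndufs3, Ndufb8, Ndufa8, Ndufb9 and Uqcrc2, from 704 bases (Ndufb9) to 1896 (Uqcrc2), were below 0 in 9 of 9 classes, with intervals below 0 in 3 or 4 of them. Among the mitochondrially encoded genes the 3 under 500 bases, mt-Atp8, mt-Nd4l and mt-Nd3, had a median ratio of 0.91 in T-like or NK-like cells, against 0.37 for the 5 from 1000 to 2000 bases.

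The longest member has 2900 bases, whereas 1853 of the other nuclear genes in T-like or NK-like cells have 4000 or more. Over this wider range other nuclear genes had rho near 0 or of the opposite sign. It was 0.062 over 7481 genes in T-like or NK-like cells, 0.041 over 3794 in B-like cells and 0.0059 over 3114 in macrophage-like or monocyte-like cells. In the epithelial classes it was 0.23 over 7772 genes in enterocyte-like, 0.27 over 2275 in goblet-like and 0.22 over 2558 in tuft-like cells, and the enterocyte-like medians went from -0.17 at 750 to 1000 bases to 0.18 at 4000 bases and over. At the short end, however, the 49 other genes under 500 bases had a median of 0.19 in T-like or NK-like cells, against -0.11 for 1902 genes from 1000 to 2000 bases, and 0.16 against -0.14 in B-like cells. The bins between, from 500 to 750 and from 750 to 1000 bases, were at -0.0084 and -0.083 in T-like or NK-like cells. In B-like cells they were at -0.033 and -0.11, so in both classes the medians of other genes also fell up to 2000 bases. Without ribosomal protein genes the short bin was at 0.091 (36 genes) in T-like or NK-like and 0.0068 (27 genes) in B-like cells. In enterocyte-like cells other genes were at 0.13, -0.11, -0.17 and -0.072 over the same bins up to 2000 bases. Whether library preparation or RNA quality had a part in this ordering was not tested.

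**Figure D5:**
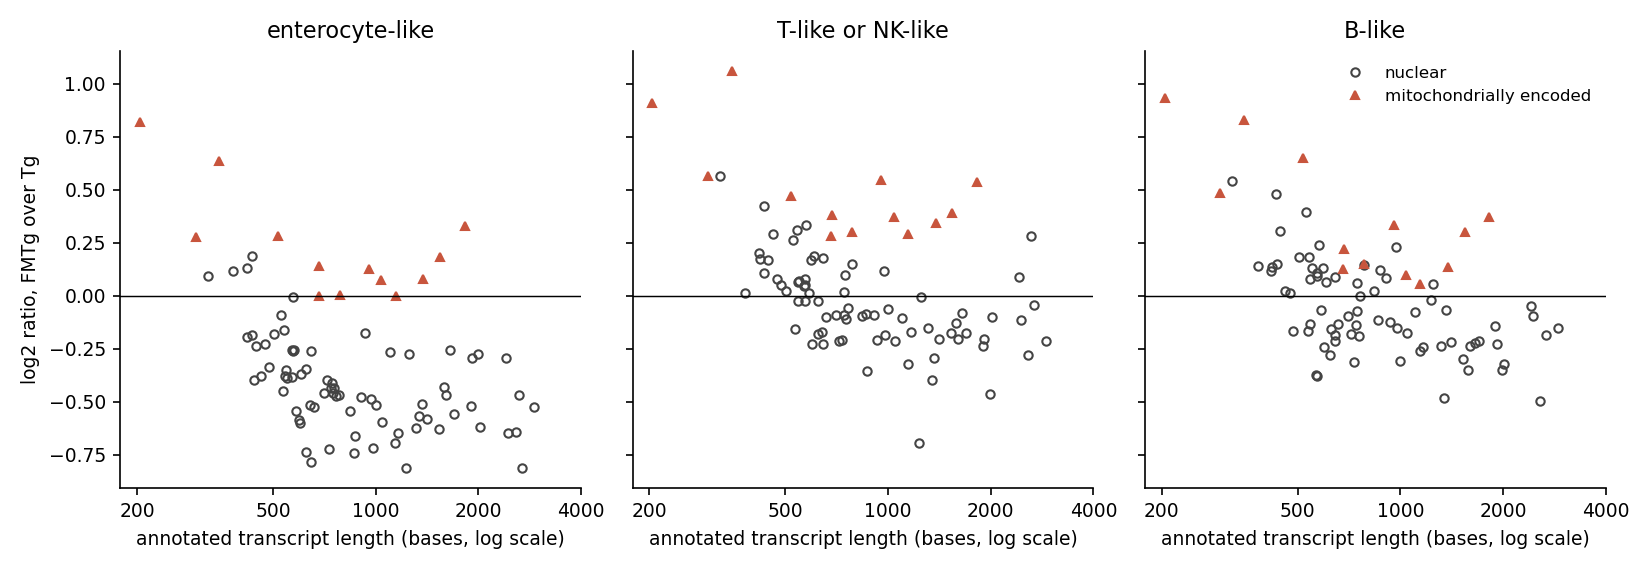
Log2 ratio (FMTg over Tg) against annotated transcript length (log axis) for nuclear (circles) and mitochondrially encoded (triangles) members with at least 100 UMIs in 3 cell classes. In each panel the points of the shortest members lie above those of most longer ones; Cox6b2 (2.67 in enterocyte-like cells) is left out.

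Isoforms of complex IV subunits were spread unevenly over the clusters. Cox6b2, an isoform best known from testis, had 62 UMIs (4.44 CPM) in 44 Tg enterocyte-like cells and 297 (28.2 CPM) in 139 FMTg cells, a log2 ratio of 2.67 (2.27 to 3.09). It was the 1 nuclear member at least 1.5-fold higher in FMTg, and it was above 0 in each of the 16 alternative settings that gave a value (1.32 to 2.90). Of these, the mean of within-cluster ratios, 1.53, used the floor of 3 UMIs in clusters 6 and 12, where FMTg had 0. Over the 3 clusters with 20 UMIs in all and some in each library, the mean was 1.18, with an interval above 0 in 1 cluster. The Cox6b2 level was highest in the villus tip cluster among the enterocyte clusters of both animals: cluster 4 had 16 UMIs (48.0 CPM) in 10 of 22 Tg cells and 247 (52.9 CPM) in 107 of 236 FMTg cells. Cluster 3 had 32 UMIs (6.78 CPM) and 28 (9.85 CPM), cluster 8 had 7 (1.39 CPM) and 22 (10.1 CPM), cluster 6 had 6 (19.2 CPM) and 0, and cluster 12 had 1 and 0. Within cluster 4 the log2 ratio was 0.14 (-0.59 to 0.97), beside 2.67 for the class. Outside the enterocytes, enteroendocrine-like cells had 0 Cox6b2 UMIs in 14 Tg cells and 20 UMIs in 8 of 16 FMTg cells. With that 0 set to the floor of 3 UMIs, the log2 ratio was 1.81. Cox6b2 had 4 and 38 UMIs in crypt-progenitor-like cells (9.36 and 20.1 CPM) and 9 and 13 in goblet-like cells (4.21 and 16.7 CPM). It had 3 and 14 in tuft-like cells (3.24 and 12.4 CPM) and 5 and 26 in unnamed cluster 11 (5.89 and 29.3 CPM). In dendritic-cell-like cells it had 9 and 1 (32.6 and 14.2 CPM). T-like or NK-like cells had 19 and 41 UMIs (3.38 and 8.40 CPM) at median depths of 4891 and 4614 UMIs. Its widely expressed partner Cox6b1 had 13613 and 8125 UMIs in enterocyte-like cells, at -0.34 (-0.38 to -0.30), which turned to 0.10 as the mean of within-cluster ratios. The Cox6b2 gene lies on the minus strand of chromosome 7, from 4751792 to 4753094 (mm10, GENCODE vM21).

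Cox7a1, the isoform known from heart and muscle, had higher levels in enterocyte-like than in immune cells. It had 3148 UMIs (225 CPM) in Tg and 1802 (171 CPM) in FMTg enterocyte-like cells, at -0.40, which turned to 0.20 without cluster 4, 0.29 as the mean of within-cluster ratios and 0.36 at a 10% mitochondrial limit. Within clusters it stood at 338 and 419 CPM in cluster 8, 205 and 493 in cluster 6, 126 and 148 in cluster 3, and 215 and 202 in cluster 12, and in cluster 4 it had 22 and 256 UMIs, at -0.27 (-0.90 to 0.43). The immune levels were 8.72 and 7.99 CPM in T-like or NK-like cells and 10.4 and 6.25 CPM in B-like cells. Cox6a2, another muscle isoform, had 40 of its 50 Tg UMIs in 3 of 22 dendritic-cell-like cells and 30 of its 34 FMTg UMIs in 2 of 6. Those cells are too few in FMTg for a ratio, and Cox6a2 was among the leading genes of that cluster. Cox4i2 and Ndufa4l2 had 10 and 3 UMIs in Tg and 2 and 2 in FMTg over all kept cells, too few for a ratio.

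The nuclear share also varied with the mitochondrial share of a cell, looked at without the 25% limit. Barcodes were put on the epithelial side where epithelial marker UMIs outnumbered immune ones, and there nuclear subunits were 3.89% of non-mitochondrial UMIs in Tg and 4.27% in FMTg at mitochondrial shares of 5 to 10%. They were 5.39% (5.36 to 5.41) and 4.63% (4.61 to 4.65) at 10 to 15%, 5.01% and 3.96% at 15 to 25%, and 3.62% and 2.55% at 25 to 50%. From 50 to 75% they were 2.52% (2.51 to 2.54) and 2.64% (2.61 to 2.66). FMTg was therefore lower between 10 and 50%, where most of its barcodes lay, and higher from 5 to 10% and from 50 to 75%. Below 5% and above 75%, with 7 and 55 FMTg barcodes, it was lower again. On the immune side the share stayed between 1.96% and 2.44% in both libraries from 5 to 50%.

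Other mitochondrial gene groups were also mostly lower in FMTg enterocyte-like cells. Their lists were chosen with earlier results of these data known, and the counts below stand against 11.2% of all genes at least 1.5-fold lower and 15.7% higher. All are values of the whole class, in which cluster 4 held 3.83% of Tg and 46.6% of FMTg cells. Ratios of these lists within clusters were not taken. Assembly factors of the complexes had a median of -0.42, with 38 of 44 below 0, 12 at least 1.5-fold lower and 1 higher; the complex II assembly factor Sdhaf4 had 324 and 117 UMIs (-1.06, -1.38 to -0.75), and the copper chaperone Cox17 2326 and 2035 (0.21). Enzymes of the citric acid cycle had a median of -0.46 (15 of 18 below 0, 4 at least 1.5-fold lower), with Idh3a, a subunit of isocitrate dehydrogenase, at 1917 and 511 UMIs (-1.50) and citrate synthase, Cs, at 5155 and 4865 (0.32). Proteins of the mitochondrial ribosome had -0.37 (13 of 78 at least 1.5-fold lower, 1 higher), import and inner membrane genes -0.44 (10 of 30), fatty acid oxidation -0.41 (1 of 14) and other respiratory chain genes -0.39 (6 of 17). Of the regulators of mitochondrial biogenesis, 3 of 23 were at least 1.5-fold lower and 2 higher. The coactivator gene Ppargc1a had 1183 UMIs in 327 Tg cells and 300 in 164 FMTg cells, at -1.57 (-1.76 to -1.39), the enterocyte transcription factor Hnf4a 3084 and 4664 (0.94 to 1.07) and Hnf4g 2211 and 1096 (-0.61). In T-like or NK-like cells the medians of the same 7 lists were between -0.24 and -0.049.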

How the data were processed

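Single-cell suspensions of small intestine were processed with the 10x Genomics Chromium 3' kit, per the labels' protocols. The submitters' processing notes name CASAVA 1.8.1, Cell Ranger 3.0 and the mm10 genome, and no source used here gives the release of the gene models. The authors deposited 1 table of raw UMI counts per library, with genes in rows and barcodes in columns. A 3' tag count does not scale with transcript length, and no level was compared between genes.

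Barcodes needed 500 UMIs, 300 genes and at most 25% mitochondrial UMIs. Scrublet scores (scanpy 1.11.5) removed 154 Tg and 144 FMTg cells at an expected 0.800% per 1000 barcodes, as automatic thresholds marked 2 and 13. Cells of both libraries were clustered on 2000 variable genes, 30 principal components and 20 neighbours (leidenalg 0.10.2, resolution 1, 24 clusters). The subunits, p53 targets, cell cycle, stress, interferon, ribosomal and mitochondrial genes were left out of the variable genes. A name needed 3 detected markers. Some naming rules were set after the clusters had been seen, among them that the first marker among a cluster's 10 leading genes belongs to the named class; 3 clusters (5, 7 and 11) stayed unnamed. UMIs were summed per class and library and scaled to the class total (CPM). Ratio intervals are exact conditional binomial intervals at 95%. A gene needed 20 UMIs over both libraries, and 1.5-fold was the size counted; a library at 0 was set to a floor of 3 UMIs per class. Calculations were tested on simulated data.

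The members, gene lists, named genes and tests were chosen with earlier results of these data known. Named genes were the mitochondrially encoded members, isoform pairs, core subunits, and in each nuclear complex the 3 with the most UMIs, the 3 highest and the 3 lowest ratios in enterocyte-like cells, and 2 and 2 per list; members above or below 0 in every cluster or class, and Ndufc2, were named after their values were seen; 1 core subunit is not reported here. The transcript length and promoter descriptions were also added after the values were seen. Alternatives covered filters, doublets, scaling (TMM of edgeR 4.0.16, DESeq2 1.42.0 size factors), gene minimum, cell weight, clustering and cluster mix.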

Additional observations from a re-analysis of the deposited data

How the results depend on the processing

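No paired analysis was possible because each genotype has 1 library. In enterocyte-like cells the nuclear median of -0.45 stayed below 0 in 17 of 17 alternatives. It was -0.36 with no mitochondrial limit, -0.68 at a 50% limit, -0.063 at a 10% limit, -0.52 without mitochondrial UMIs and the 20 most abundant genes in the totals, -0.55 with TMM and -0.547 with DESeq2 factors, -0.11 without cluster 4 and -0.032 as the mean of within-cluster ratios. The count of members at least 1.5-fold lower, 19, was 7 of 78 with no limit (8.72% of all genes), 49 of 78 at 50% (18.7%), 4 of 76 at 10% (17.1%), 32 of 78 with TMM (14.7%), 31 of 78 with DESeq2 (14.4%), 1 of 78 without cluster 4 (7.61%) and 0 of 78 within clusters (5.79%). In all cells the main counts of 0 lower and 1 higher became 11 of 79 lower at 50% (13.2% of all genes) and 11 of 79 higher at 10% (12.4%), near the shares of all genes. In all cells the nuclear median of -0.22 was -0.38 at a 50% limit, -0.28 with TMM, -0.30 with DESeq2, -0.070 within clusters and -0.29 within bins of mitochondrial share, and turned to 0.28 at a 10% limit.

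The mitochondrially encoded median in enterocyte-like cells, 0.14, turned to -0.099 with no limit and was 0.36 at 50%, 0.36 at 10%, 0.16 on non-mitochondrial totals, 0.078 without abundant genes, 0.042 with TMM, 0.048 with DESeq2, 0.24 with equal weight per cell, 0.12 without cluster 4, 0.13 within clusters and 0.071 within bins. In all cells, main value 0.21, the same settings gave 0.026, 0.39, 0.26, 0.24, 0.17, 0.155, 0.13, 0.31, 0.088 (without 3 clusters mostly of 1 library), 0.27 and 0.038. At a 10% limit, with 58 Tg and 11 FMTg enterocyte-like cells, Ndufb10 turned to 0.010, Atp5a1 to 0.074, Atp5c1 to 0.092 and Ndufs8 to 0.21; Atp5s turned to 0.27 with equal weight per cell. These were the named members past 1.5-fold that turned. Outside the named genes, Ndufa5 (-0.59) and Ndufab1 (-0.65) turned to 0.082 and 0.060 as means of within-cluster ratios. Both were added after their values were seen. Of all 44 named nuclear members below 0, 18 turned above 0 at a 10% limit, up to 0.36 for Cox7a1, 0.30 for Uqcrq, 0.29 for Uqcrh and 0.25 for Atp5g2, 14 as means of within-cluster ratios and 9 without cluster 4. The cause was not tested. With no limit or a 50% limit, a cluster mostly of FMTg cells stayed unnamed because a goblet marker, Guca2a, was among its leading genes. The alternative without the shallow cluster was added after seeing the data and gave -0.46 and 0.14.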

Other observations

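p53 targets whose proteins act at mitochondria had a median log2 ratio of 0.21 over 9 measured genes in FMTg enterocyte-like cells, with 4 of 9 below 0, 2 at least 1.5-fold higher and 0 lower, against 15.7% and 11.2% of all genes. This and the values below are of the whole class, and ratios within clusters were not taken. Pmaip1, which encodes the pro-apoptotic protein Noxa, had 571 UMIs in Tg and 934 in FMTg, at 1.12 (0.96 to 1.27). Sesn2, a stress-induced regulator of mTORC1, had 189 and 364, at 1.35 (1.09 to 1.61), and Bax, the pore-forming protein of the outer membrane, 2696 and 2623, at 0.37 (0.29 to 0.44). Genes of uncoupling and mitophagy had a median of 0.16, with Ucp2 at 2906 and 1496 UMIs (-0.55), the autophagy kinase gene Ulk1 at 99 and 131 (0.81) and the autophagy receptor Sqstm1 at 366 and 416 (0.59). In T-like or NK-like cells the medians of these lists were 0.22 and -0.0080.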
